A study of Mus musculus with 16 samples.

Results

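Heme oxygenase, iron and antioxidant genes were followed through ventricles of mouse embryos with hypoplastic left heart syndrome (HLHS), a malformation in which the left side of the heart stays too small. The set holds 10 of the 37991 genes in the counts table, picked by symbol: Hmox1, Hmox2, Blvrb, Fth1, Slc40a1, Tfrc, Nfe2l2, Nqo1, Gclm and Txnrd1. It was put together around a higher Hmox1 level in HLHS, so the HLHS values of the 10 genes are a description of these libraries and no test of theirs is offered. How many of them lay past the adjusted threshold in the planned fits is given beside the share of all genes. Counts under other settings stand in the section on how the results depend on the processing. Tests for the 10 genes are those within control hearts, which use no HLHS library.

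The study sequenced RNA of both heart ventricles, left and right apart, from 8 embryos on a C57BL/6 background, giving 16 libraries. HLHS ventricles came from 3 embryos, 1 per stage (E13.5, E14.5 and E17.5, in embryonic days). Littermate control ventricles came from 5 embryos, 1 of stage E13.5, 2 of E14.5 and 2 of E17.5. Both ventricles of an embryo carry the same replicate number, and stage and litter are the same split, so they cannot be told apart. The labels give the phenotype of each embryo and no allele, and with 1 HLHS embryo per litter each stage has no HLHS replicate of its own. Total counts ran between 17081273 and 28648645 reads per library. The least abundant of the 10 genes, Nqo1, had 38 to 304 reads per library, and Fth1 had 7126 to 13321. Levels are given in CPM, the read count of a gene relative to the library total after TMM scaling, which compares 1 gene between libraries.

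Heme oxygenase opens the heme ring and releases iron, carbon monoxide and biliverdin, which biliverdin reductase turns into bilirubin. Cells store the freed iron in ferritin or pass it out through ferroportin, and take iron up through the transferrin receptor. The transcription factor NRF2 (Nfe2l2) binds antioxidant response elements with small MAF partners and raises genes for glutathione, thioredoxin and quinone metabolism. BACH1, a repressor that senses heme, competes for the same elements, and Hmox1 is the textbook target of both. When iron is scarce, iron regulatory proteins bind hairpins called iron-responsive elements, blocking translation of ferritin and protecting Tfrc mRNA from decay.

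Sequence stretches are shown for genes of the set whose RefSeq promoter window (GRCm38.p6, 250 bases before to 50 after a start) holds the core letters of an antioxidant response element, TGACNNNGC, on either strand. Windows were found for 8 of the 10 genes (Hmox1 and Slc40a1 had no entry), and 3 of their 15 windows held a match, 1 each in Nfe2l2, Gclm and Txnrd1. Of all 32851 windows of this length, 12.4% held one. Capitals mark the match, each stretch reads 5′ to 3′ on the strand of its gene, and in Gclm and Txnrd1 the match lies on the opposite strand. The stretches lie at chr2:75704869-75704913 (Nfe2l2, minus strand), chr3:122245397-122245457 (Gclm, plus strand) and chr10:82859088-82859148 (Txnrd1, plus strand). No binding was measured here, and these letters are a description only.
Nfe2l2: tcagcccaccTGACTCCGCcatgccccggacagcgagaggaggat
Gclm: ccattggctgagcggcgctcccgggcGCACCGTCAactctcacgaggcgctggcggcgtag
Txnrd1: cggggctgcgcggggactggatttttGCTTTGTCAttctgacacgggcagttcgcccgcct

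The conserved letters of iron-responsive elements, a C, any 5 bases and then CAGTG, were searched on the transcript strand of the ferritin heavy chain and transferrin receptor mRNAs (GENCODE vM21, GRCm38), the textbook carriers of these hairpins. The Fth1 match shown starts at base 93 of a 224-base 5′ untranslated region, and 5 Tfrc matches lie in its 2461-base 3′ untranslated region, at bases 892, 1271, 1318, 1336 and 1383. Of all coding transcripts, 8.24% held the letters in the 5′ and 27.1% in the 3′ untranslated region, whatever its length. A further match in the 3′ untranslated region of Fth1 is not shown. Capitals mark the fixed letters, and only the letters were searched, not the fold of the RNA.
Fth1: ttcctgCttcaaCAGTGcttgaacggaa
Tfrc site a: aattatCggaagCAGTGccttccataat
Tfrc site b: cattatCgggagCAGTGtcttccataat
Tfrc site c: ttttgcCtaccaCAGTGtctatatcgga
Tfrc site d: ctatatCggagaCAGTGatctccatatg
Tfrc site e: aattatCgggaaCAGTGtttcccataat

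Hmox1, the heme oxygenase that cells induce under heme load and oxidative stress, was higher in HLHS than in every littermate on both sides and at all 3 stages. In the left ventricle it stood at 69.8 CPM in the E13.5 HLHS embryo and 20.4 CPM in its control littermate. At E14.5 the HLHS left ventricle had 107 CPM, against 19.7 and 22.6 CPM in controls. At E17.5 it had 47.1 CPM, against 14.1 and 13.1 CPM in controls. The left-ventricle groups did not overlap, and the lowest HLHS library, at 47.1 CPM, was above the highest control library, at 22.6 CPM.

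The right ventricles of the same embryos gave smaller differences. At E13.5 Hmox1 had 29.4 CPM in the HLHS right ventricle and 20.05 CPM in the control. At E14.5 it had 37.2 CPM in HLHS, against 21.6 and 20.5 CPM in controls. At E17.5 it had 41.9 CPM in HLHS, against 15.8 and 14.8 CPM in controls. Here too the groups did not overlap, and the share of all genes with such a gap was not counted on either side.

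The 2 sides were closest at E17.5. From the earliest to the latest stage, the HLHS to littermate ratio was 3.41, 5.06 and 3.46 in the left ventricle. It was 1.46, 1.77 and 2.74 in the right. At E17.5 the HLHS left and right ventricles were 47.1 and 41.9 CPM, whereas at E14.5 they were 107 and 37.2 CPM. Each HLHS point is 1 embryo, and a change of the HLHS difference with stage was not tested.

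**Figure D1:**
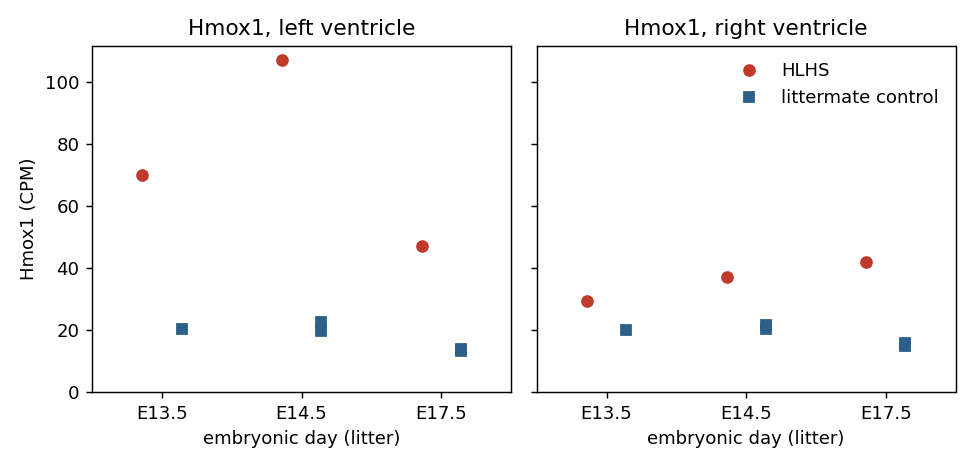
Hmox1 level (CPM) in each of the 16 libraries by ventricle and embryonic day, with HLHS and littermate control libraries as separate points. HLHS points lie above their control littermates throughout, with the highest value, 107 CPM, in the E14.5 left ventricle.

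With litter as a block, the edgeR estimate for Hmox1 was a log2 difference of 2.00 ± 0.11 (SE) in the left ventricle, from 3 HLHS and 5 control libraries. For right ventricles it was 0.99 ± 0.14 (1.99-fold). The left difference exceeded the right one by 1.02 ± 0.18 on the log2 scale, in a fit with each embryo as a block. Without the E14.5 HLHS embryo that side difference was 0.69, and without the E17.5 one it was 1.40. Without the E17.5 HLHS embryo the right-ventricle estimate was 0.71.

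Of the 10 genes, 3 lay past the adjusted threshold of 0.05 upward and 0 downward in the HLHS left ventricle (Hmox1, Slc40a1 and Gclm). The same held for 6.17% of all 15979 genes upward and 6.61% downward, or 12.8% in all. In the HLHS right ventricle it was 1 upward, Hmox1, and 0 downward, against 3.56% and 3.05% of 16142 genes (6.61% in all). For the left minus right difference it was 1 upward, again Hmox1, and 0 downward, against 0.533% and 0.503% of 16508 genes (1.04% in all). The median log2 difference over the 10 genes was -0.04 in the left ventricle and 0.03 in the right, and over all genes it was 0.01 in both. Of 14 other settings, the left-ventricle call held in 13 for Hmox1, in 8 for Slc40a1 and in 5 for Gclm. The Hmox1 call held in 13 on the right and in 9 for left minus right. These counts describe a set that was chosen with the HLHS values known, so nothing is read from them.

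The order of each litter was also counted, from the same libraries and likewise as a description. Hmox1, Slc40a1 and Gclm were above every littermate in all 3 litters in the left ventricle, as were 16.8% of all genes. Hmox2 and Nqo1 were below every littermate there, as were 16.0% of all genes. On the right, Hmox1, Slc40a1 and Gclm were again above every littermate in all 3 litters (16.1% of all genes), and Tfrc was below (12.8%). For Gclm at E17.5 this rested on a tie to 3 digits, at 38.0 CPM in HLHS and in the higher control.

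**Figure D2:**
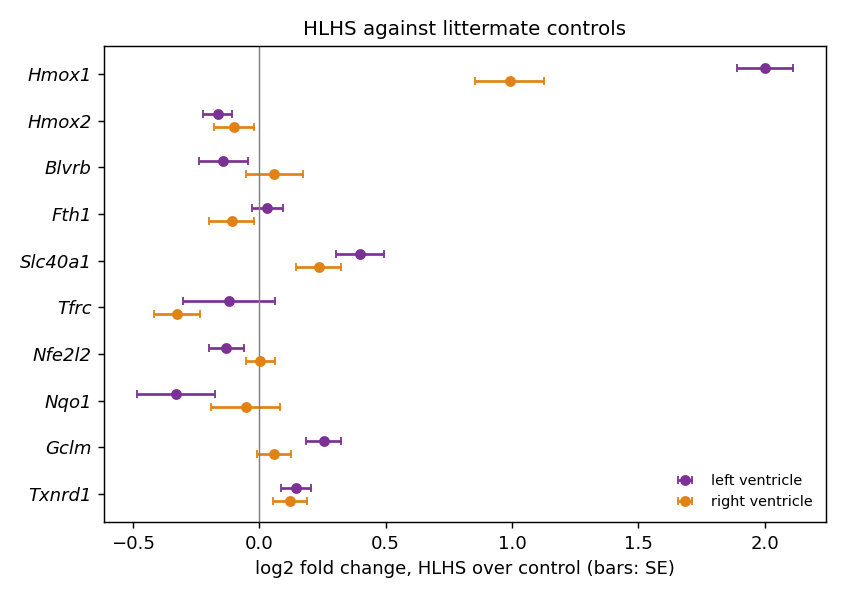
Log2 difference, HLHS minus littermate control, of the 10 genes in the left and the right ventricle, with bars of ± 1 SE. Hmox1 stands at 2.00 in the left and 0.99 in the right ventricle, and the other 9 genes lie between -0.33 and 0.40.

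Hmox2, the constitutive heme oxygenase, did not share the direction of Hmox1. In the left ventricle it was 43.8 CPM in HLHS and 49.8 CPM in the control at E13.5. At E14.5 it was 45.4 CPM in HLHS, against 51.8 and 53.0 CPM in controls, and at E17.5 it was 47.5 CPM, against 50.4 and 51.8 CPM. All 3 HLHS left ventricles were thus below all 5 controls, by a fitted log2 difference of -0.16 ± 0.06. On this side 16.0% of all genes were below every littermate in all 3 litters. The share of all genes below all 5 controls, a stricter order, was not counted. The right-ventricle groups overlapped, with 43.7 to 49.6 CPM in HLHS and 46.5 to 52.7 CPM in controls. Exons of Hmox2 overlap those of Cdip1 on the other strand over 892 bases, and the library kit named in the labels does not mark strand, so reads of these 2 genes cannot be told apart there. Cdip1 averaged 150 CPM in HLHS and 183 CPM in control left ventricles.

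Blvrb, a biliverdin reductase abundant in red cells, showed no shift of one direction. HLHS left ventricles had 12.4 to 16.8 CPM, and control left ventricles 14.2 to 21.0 CPM. In right ventricles the range was 13.9 to 21.8 CPM in HLHS and 13.1 to 19.4 CPM in controls. The right side differed by litter, with HLHS at 21.8 CPM against 17.1 and 18.3 CPM in controls at E14.5, and at 15.7 CPM against 19.4 and 17.1 CPM at E17.5.

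Among the iron genes, Slc40a1, which encodes the iron exporter ferroportin, was the one that lay above littermates throughout, by far less than Hmox1. In the left ventricle it had 24.1 CPM in HLHS and 16.4 CPM in the control at E13.5. At E14.5 it had 27.4 CPM in HLHS, against 23.1 and 26.2 CPM in controls. At E17.5 it had 31.1 CPM in HLHS, against 20.9 and 22.2 CPM in controls. The HLHS value was close to the higher control only at E14.5, the stage at which Hmox1 was farthest from its controls.

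In right ventricles Slc40a1 had 16.5 CPM in HLHS and 15.4 CPM in the control at E13.5. At E14.5 it had 25.5 CPM in HLHS, against 23.0 and 22.3 CPM, and at E17.5 it had 23.0 CPM, against 16.4 and 18.6 CPM in controls. The fitted log2 difference was 0.40 ± 0.09 in the left ventricle (1.32-fold) and 0.24 ± 0.09 in the right. The left-ventricle estimate ran between 0.32 without the E17.5 and 0.54 without the E14.5 HLHS embryo.

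Tfrc, the transferrin receptor, went opposite ways at 2 stages in the left ventricle. At E13.5 it had 128 CPM in HLHS and 140 CPM in the control. At E14.5 it was higher in HLHS, with 218 CPM against 173 and 147 CPM in controls. At E17.5 it was lower, with 223 CPM against 357 and 397 CPM in controls. HLHS left ventricles thus had nearly the same Tfrc level at E14.5 and E17.5, while control left ventricles at E17.5 were above all younger ones.

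In right ventricles Tfrc was below littermates in every litter. At E13.5 it had 128 CPM in HLHS and 152 CPM in the control, and at E14.5 it had 136 CPM, against 141 and 151 CPM. At E17.5 it had 219 CPM in HLHS, against 322 and 344 CPM in controls. The fitted log2 difference was -0.12 ± 0.18 in the left ventricle and -0.32 ± 0.09 in the right. The left estimate was 0.21 without the E17.5 HLHS embryo and -0.49 without the E14.5 one.

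Fth1, the ferritin heavy chain that stores iron, overlapped between groups on both sides. Left ventricles had 356 to 488 CPM in HLHS and 382 to 478 CPM in controls. Right ventricles had 388 to 421 CPM in HLHS and 366 to 522 CPM in controls. The log2 differences were 0.03 ± 0.06 and -0.11 ± 0.09 in the left and right ventricle. The processed ferritin copy Fth-ps2 had 45 reads over all libraries, against 165969 for Fth1.

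**Figure D3:**
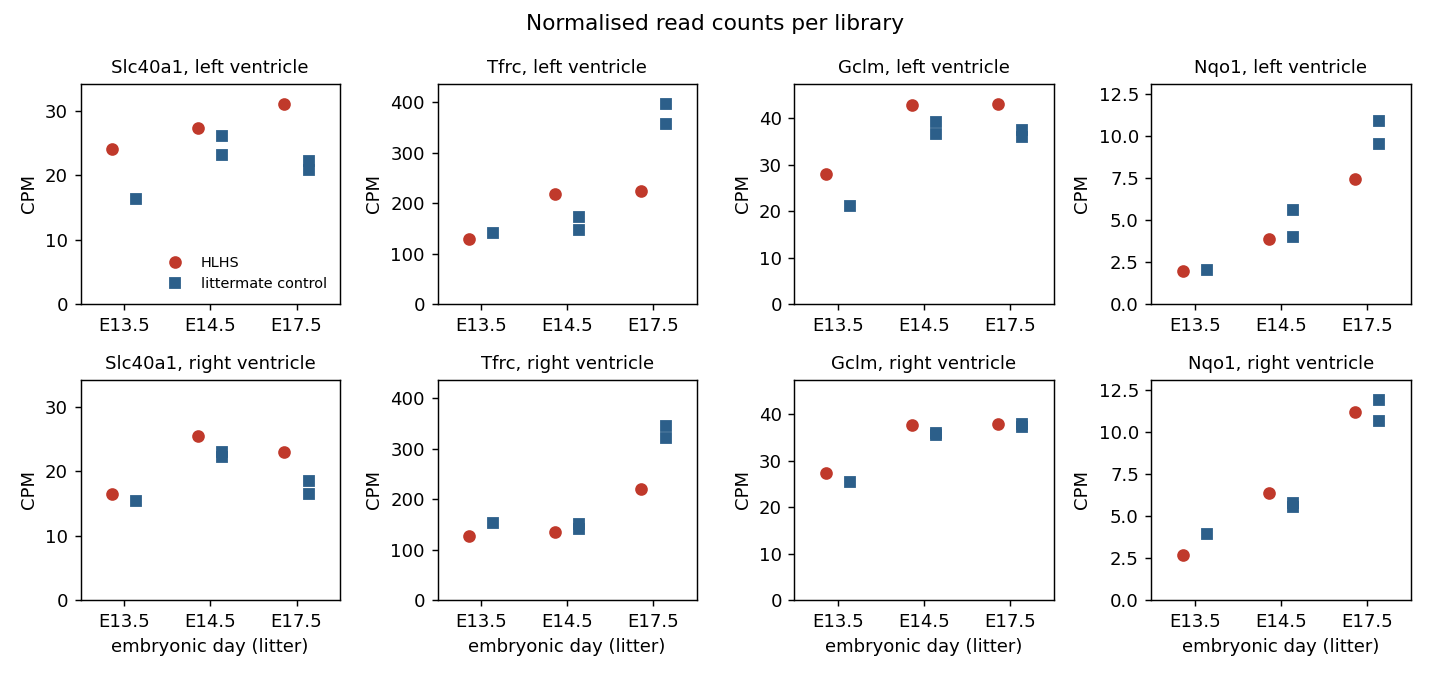
Levels (CPM) of Slc40a1, Tfrc, Gclm and Nqo1 in each library by embryonic day, with left ventricles above and right ventricles below and HLHS and control libraries as separate points. Tfrc and Nqo1 are highest at E17.5, where Tfrc is 223 CPM in the HLHS left ventricle and 357 and 397 CPM in controls.

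Nfe2l2, the gene for NRF2 itself, was not higher in HLHS at the mRNA level. In the left ventricle it had 68.0 CPM in HLHS and 67.1 CPM in the control at E13.5. At E14.5 it had 59.4 CPM in HLHS, against 70.7 and 76.5 CPM in controls, and at E17.5 it had 85.6 CPM, against 89.9 and 89.2 CPM. The E14.5 HLHS left ventricle, which had the highest Hmox1, had the lowest Nfe2l2 of all 16 libraries. Right ventricles had 69.3 to 88.2 CPM in HLHS and 66.9 to 89.8 CPM in controls. NRF2 acts through protein stability and location, which these counts do not measure.

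Among the NRF2 targets in the set, Gclm and Txnrd1 had higher estimates in HLHS on both sides, by far less than Hmox1, and Nqo1 had lower ones. Nqo1, a quinone reductase and standard NRF2 reporter, had 2.00 CPM in the HLHS left ventricle and 2.04 CPM in the control at E13.5. At E14.5 it had 3.85 CPM in HLHS, against 3.98 and 5.62 CPM in controls. At E17.5 it had 7.43 CPM in HLHS, against 9.51 and 10.9 CPM in controls. It was lower in HLHS in each litter, though by only 0.04 CPM at E13.5. In right ventricles the groups overlapped, with 2.68 to 11.1 CPM in HLHS and 3.93 to 11.9 CPM in controls. The log2 difference was -0.33 ± 0.15 in the left ventricle and -0.05 ± 0.14 in the right.

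Gclm, the regulatory subunit of the enzyme that limits glutathione synthesis, was modestly higher in the HLHS left ventricle. It had 28.1 CPM in HLHS and 21.1 CPM in the control at E13.5. At E14.5 it had 42.9 CPM in HLHS, against 36.6 and 39.3 CPM in controls, and at E17.5 it had 43.2 CPM, against 37.5 and 36.0 CPM. The fitted log2 difference was 0.26 ± 0.07 (1.19-fold). In right ventricles the groups overlapped, with 27.3 to 38.0 CPM in HLHS and 25.4 to 38.0 CPM in controls, a log2 difference of 0.06 ± 0.07.

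Txnrd1, the cytosolic thioredoxin reductase, was above littermates in the left ventricle at the 2 earlier stages. It had 166 CPM in HLHS and 150 CPM in the control at E13.5, and 157 CPM in HLHS against 134 and 126 CPM in controls at E14.5. At E17.5 its 117 CPM in HLHS lay between the 114 and 118 CPM of the controls. Right ventricles had 123 to 153 CPM in HLHS and 106 to 129 CPM in controls. The log2 differences were 0.15 ± 0.06 in the left and 0.12 ± 0.07 in the right ventricle.

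For the left minus right difference in the HLHS effect, the estimates of the other 9 genes ran between -0.29 and 0.19 on the log2 scale, against 1.02 for Hmox1. Across the 16 libraries the log2 CPM of the other 9 genes had Pearson correlations with Hmox1 between -0.76 (Hmox2) and 0.63 (Txnrd1), with 0.55 for Slc40a1 and 0.15 for Gclm. The libraries share embryos and litters, so these values are a description. Among 11129 genes averaging a log2 CPM of 2 or more, those most like Hmox1 by this measure were Sytl2 (0.94), Ddah1 (0.92), Xpr1 (0.92), Nudt18 (0.92) and Stk38l (0.91). Ddah1, which breaks down methylated arginines that inhibit nitric oxide synthase, had 42.4 to 90.3 CPM in HLHS and 27.4 to 33.8 CPM in control left ventricles. Xpr1, a phosphate exporter, had 117 to 146 CPM in HLHS and 79.3 to 94.2 CPM in control left ventricles. Both genes were picked for following Hmox1, so their higher levels in HLHS come with that choice.

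Beyond the 10 genes, 5 wider lists of pathway genes were counted by direction with edgeR's quasi-likelihood test, adjusted over all genes. The shares of all genes past the same threshold stand beside the counts, and a count near that share says nothing about a list. Among 20 further NRF2 targets, 2 rose and 0 fell in the HLHS left ventricle (all genes, 6.17% and 6.61%), with a median of 0.08. The called share was 10%, all of it upward, against 6.17% of all genes upward and 12.8% in either direction. G6pdx, the first enzyme of the pentose phosphate path that supplies NADPH, rose by 0.49 ± 0.07 on the log2 scale, and Sqstm1, an autophagy receptor, by 0.47 ± 0.07. In the HLHS right ventricle 4 rose and 1 fell (all genes, 3.56% and 3.05%), with a median of 0.07. G6pdx rose there by 0.49 ± 0.08, the pentose phosphate enzyme Tkt by 0.38 ± 0.06 and Ugdh, which makes UDP-glucuronate, by 0.42 ± 0.09. Srxn1, which repairs overoxidised peroxiredoxins, fell there by 0.59 ± 0.12, and its HLHS effect was 0.69 ± 0.13 higher on the left than on the right, the only gene of these 5 lists to pass that test in edgeR. In DESeq2 it did not, nor in 7 of the 8 fits without 1 embryo (the exception being control replicate 2). Left-ventricle calls of G6pdx and Sqstm1 held in each of these 8 fits. On the right G6pdx was lost without HLHS replicates 2 or 3, Tkt without control 1 or HLHS 1 or 2, Srxn1 without control 1 or 5 or HLHS 1 or 3, and Ugdh without control 1 or 5 or any HLHS replicate.

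Of 9 NRF2 partners and repressors, 3 rose and 0 fell in the HLHS left ventricle (all genes, 6.17% and 6.61%), with a median of 0.11. Bach2, a relative of the heme-sensing repressor BACH1, rose by 0.62 ± 0.10, and the small MAF genes Mafg and Mafk rose by 0.36 ± 0.06 and 0.38 ± 0.10. On the right 0 of the 9 passed in edgeR and 0 in DESeq2, with 2 at an unadjusted p under 0.05 and a median of 0.03. For the left minus right difference 0 of the 9 passed in edgeR and 0 in DESeq2 as well, with 2 at an unadjusted p under 0.05. The calls of Bach2 and Mafg held in each of the 8 fits without 1 embryo, and that of Mafk in 2 of them (without control replicate 3 or HLHS replicate 2).

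Of the further iron genes, 19 were tested in each ventricle. Left ventricles had 0 that rose and 1 that fell, the zinc and iron importer Slc39a14 (-0.31 ± 0.07), with a median of -0.01 (all genes, 6.17% and 6.61%). Right ventricles had 2 that rose and 0 that fell (all genes, 3.56% and 3.05%), with a median of 0.00. These were Bmp6, which signals iron load in liver (0.68 ± 0.14), and Cp, the ferroxidase ceruloplasmin (0.88 ± 0.18). Each of these calls was lost in 4 or 5 of the 8 fits without 1 embryo, those without HLHS replicate 2 included.

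Of 19 heme genes, 4 rose and 2 fell in the HLHS left ventricle, and 1 rose and 1 fell in the right, with medians of -0.05 and -0.07. The shares of all genes past the threshold were 12.8% on the left and 6.61% on the right. Alas1, the first enzyme of heme synthesis outside red cells, fell by 0.62 ± 0.05 on the log2 scale in the left and by 0.44 ± 0.08 in the right ventricle. Alas2, its red-cell counterpart, rose by 0.92 ± 0.18 in the left ventricle. Lrp1, a receptor that takes up heme bound to hemopexin, rose there by 0.35 ± 0.05, and Abcg2, a porphyrin exporter, by 0.28 ± 0.05. On the left, Alas1 and Lrp1 held their calls in each of the 8 fits without 1 embryo, and Abcg2 and Alas2 lost theirs without HLHS replicate 2. Alas1 on the right was lost without control replicate 1 and without each HLHS replicate. Pgrmc1, a heme-binding membrane protein, rose on both sides, by 0.24 ± 0.06 on the left and 0.28 ± 0.06 on the right. It held in 4 and 2 of the 8 fits. Flvcr2, the other heme gene that fell on the left, did so by 0.40 ± 0.09.

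Of 25 other antioxidant enzymes, 2 rose and 5 fell in the HLHS left ventricle (all genes, 6.17% and 6.61%), with a median of -0.04. Gpx3, the secreted glutathione peroxidase, rose by 1.10 ± 0.12. Sod2, the superoxide dismutase of mitochondria, fell by 0.37 ± 0.06, the mitochondrial thioredoxin reductase Txnrd2 by 0.27 ± 0.06 and the mitochondrial methionine sulfoxide reductase Msrb2 by 0.67 ± 0.12. Right ventricles had 2 that rose and 1 that fell (all genes, 3.56% and 3.05%), with a median of -0.07. Gpx3 rose there by 0.73 ± 0.08 and Prdx4, a peroxiredoxin of the endoplasmic reticulum, by 0.27 ± 0.06, and Msrb2 fell by 0.36 ± 0.09. Calls held in each of the 8 fits without 1 embryo for Gpx3 on both sides and for Sod2 and Msrb2 on the left. Txnrd2 held without control replicate 5 alone, and Prdx4 and Msrb2 on the right in 2 fits each.

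**Figure D4:**
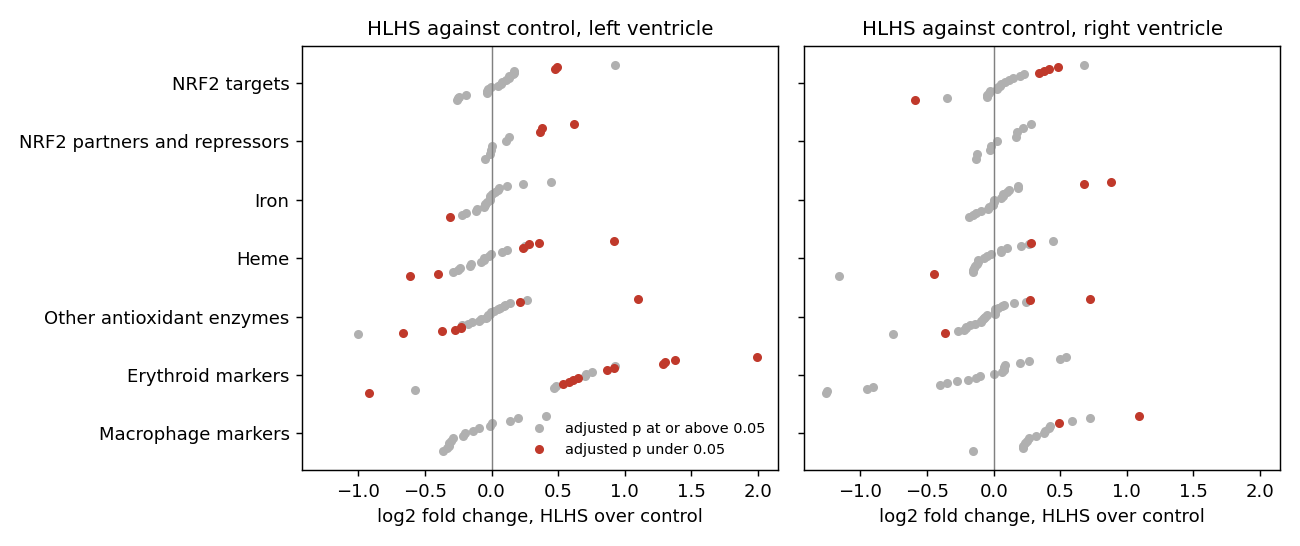
Log2 difference, HLHS over littermate control, of every tested gene of the 5 wider pathway lists and of the red-cell (erythroid) and macrophage markers, with the left and right ventricle in separate panels; red points have an adjusted p under 0.05. Gpx3 at 1.10 is the farthest-right point of the 5 pathway lists on the left side, and red-cell markers lie mostly above 0 on the left side and on both sides of 0 on the right.

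Markers of other cells were read beside these values, since in whole ventricles fewer cells of a type and less RNA per cell cannot be told apart. All 10 heart muscle markers were detected, with summed levels of 27021 to 31719 CPM in HLHS and 23738 to 36629 CPM in control left ventricles. There 0 rose and 1 fell, Myh6 (-0.99 ± 0.22), with a median of -0.04 (all genes, 6.17% and 6.61%). In right ventricles these markers summed to 23810 to 33189 CPM in HLHS and 28746 to 39712 CPM in controls. All 10 right-ventricle estimates were below 0, with a median of -0.24. Past the threshold was 1, Ryr2 (-0.40 ± 0.09), where 3.05% of all genes fell. For left minus right 0 were higher and 1 was lower, again Myh6 (-0.66 ± 0.10), with a median of 0.19 (all genes, 0.533% and 0.503%).

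Red-cell markers, of which 21 of 24 were in the table, were counted on each side: of 18 tested in the left ventricle 10 rose in HLHS and 1 fell (all genes, 6.17% and 6.61%), and of 20 tested in the right 0 passed in edgeR (3 at an unadjusted p under 0.05; 1 in DESeq2). Without the E14.5 HLHS embryo 1 rose and 1 fell in the left ventricle. For the left minus right difference 2 of 20 were higher and 1 lower (all genes, 0.533% and 0.503%), with a median of 0.85. Their sum in the left ventricle was 1133, 1361 and 771 CPM in HLHS at E13.5, E14.5 and E17.5. In control left ventricles it was 775 CPM at E13.5, 664 and 851 CPM at E14.5, and 501 and 647 CPM at E17.5.

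On the right the red-cell sum was 684, 834 and 586 CPM in HLHS, against 796 CPM at E13.5, 634 and 635 CPM at E14.5, and 646 and 520 CPM at E17.5 in controls. On the left the red-cell sum and Hmox1 were both higher in HLHS in each litter, and the part of red cells in that difference was not tested. The same holds for Slc40a1, Gclm and Alas2, itself one of these markers. Leaving globin genes out of library sizes changes the scaling alone and does not bear on Hmox1 RNA carried by red cells. The Hmox1 difference was then 2.00 in the left and 0.99 in the right ventricle.

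Macrophages recycle heme and carry both Hmox1 and Slc40a1. Of 15 macrophage markers tested in the left ventricle 0 passed in edgeR (1 at an unadjusted p under 0.05; 1 in DESeq2), with a median of -0.20. In the right 2 rose, F13a1 and Mrc1, with a median of 0.38 (all genes, 3.56% upward), and 1 to 3 did in fits without 1 embryo. Their sum was 112 to 189 CPM in HLHS and 133 to 244 CPM in control left ventricles, and 152 to 232 CPM in HLHS and 110 to 176 CPM in control right ventricles. The part of macrophages in the Hmox1 and Slc40a1 values was not tested. Of 7 fibroblast and mesenchyme markers, 0 rose and 4 fell in the HLHS left ventricle (all genes, 6.17% and 6.61%). The 4 were Col3a1, Postn, Tcf21 and Dcn, and the list median was -0.30. There the 7 markers summed to 3609 to 4350 CPM in HLHS and 4159 to 5305 CPM in controls. In HLHS right ventricles 0 passed in edgeR (6 at an unadjusted p under 0.05; 4 in DESeq2), with a median of 0.33 and sums of 5026 to 6781 CPM in HLHS and 2867 to 5802 CPM in controls. For left minus right 4 were lower and 0 higher (all genes, 0.503% and 0.533%), with a median of -0.64. Of 7 endothelial markers, 0 rose and 2 fell on the left (all genes, 6.17% and 6.61%), with a median of -0.22. The 2 were Cldn5 and Cdh5, and the left sums were 884 to 1207 CPM in HLHS and 1137 to 1286 CPM in controls. On the right 0 rose and 1 fell (all genes, 3.56% and 3.05%), with a median of -0.08. The part of heart muscle, fibroblast and endothelial RNA in the values of the 10 genes was not tested.

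Hepatocyte markers summed to at most 14.7 CPM in any library. Among the red-cell and macrophage markers Hbb-bh1, Rhag, Cldn13, Cd163 and Timd4 were at 0 in at least 1 library.

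Within control hearts, the 10 genes did not differ detectably between left and right ventricle. Of the 10, 0 passed in edgeR's quasi-likelihood test with embryo as a block (5 embryos), and 0 passed in DESeq2, where 6.10% of 16238 genes passed in edgeR, 2.09% higher and 4.01% lower on the left. At an unadjusted p under 0.05 there was 1, Slc40a1, with a log2 left minus right difference of 0.19 ± 0.07 and an edgeR adjusted p of 0.130. Hmox1 differed by -0.06 ± 0.07 (edgeR adjusted p 0.677) and Nqo1 by -0.28 ± 0.13 (edgeR adjusted p 0.260). A miss at this size does not show equal levels.

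With stage, 6 of the 10 genes changed in control hearts. With both ventricles of an embryo summed, 2 embryos at E17.5 were compared with 2 at E14.5, each pair from 1 litter, so litter and stage cannot be told apart. Of the 10 genes 4 rose and 2 fell in edgeR's test, where 30.0% of 16823 genes passed, 15.8% upward and 14.1% downward. Tfrc rose most, by 1.22 ± 0.07 on the log2 scale (edgeR adjusted p 3.81e-04), and Nqo1 by 1.04 ± 0.11 (edgeR adjusted p 0.0019). In each ventricle both E17.5 controls were above all 3 younger controls for both genes.

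Hmox1 fell with stage, by 0.54 ± 0.09 on the log2 scale (edgeR adjusted p 0.0066). Control left ventricles at E17.5 had 14.1 and 13.1 CPM, against 19.7 and 22.6 CPM at E14.5. Control right ventricles at E17.5 had 15.8 and 14.8 CPM, against 21.6 and 20.5 CPM at E14.5.

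The other calls with stage were smaller. Nfe2l2 rose by 0.33 ± 0.07 (edgeR adjusted p 0.0124), and missed the threshold without control replicate 2 (adjusted p 0.0952). Fth1 rose by 0.28 ± 0.09 (edgeR adjusted p 0.0446) and passed in 7 of 11 other settings, with misses in right ventricles alone and without control replicates 2, 3 and 4. Slc40a1 fell by 0.28 ± 0.09 (edgeR adjusted p 0.0492) and passed in 4 of 11, with misses that include DESeq2 and fits without control replicates 2, 3 and 4. Hmox2, Blvrb, Gclm and Txnrd1 did not pass, with log2 differences between -0.16 and 0.05.

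**Figure D5:**
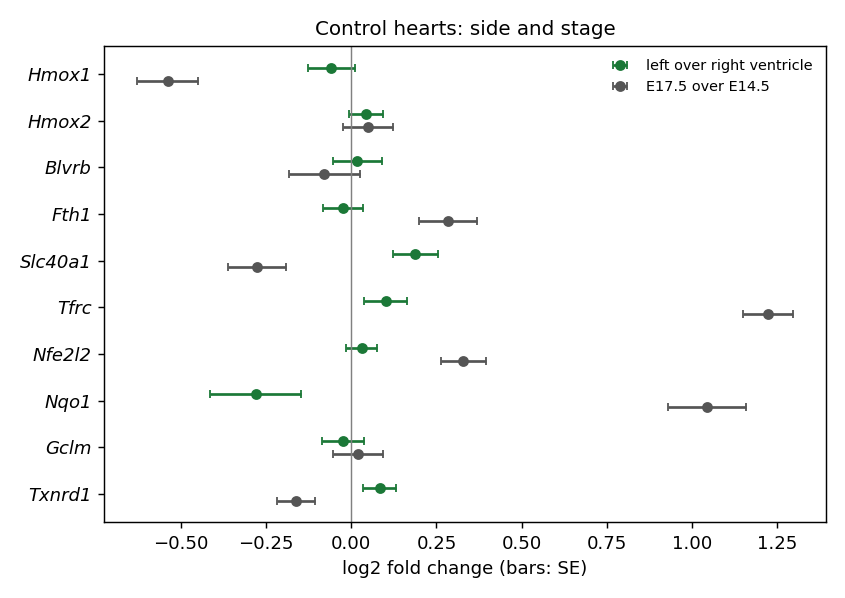
Log2 differences of the 10 genes within control hearts, left over right ventricle (green) and E17.5 over E14.5 (grey), with bars of ± 1 SE. The side differences lie between -0.28 and 0.19, and the stage differences between -0.54 for Hmox1 and 1.22 for Tfrc.

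Per length of the longest coding transcript, the order of the levels over all 16 libraries was led by Fth1, at 286 ± 31.1 RPKM (CPM per kilobase; mean ± SD, n = 16). Tfrc (43.2 ± 18.9 RPKM), Txnrd1 (36.1 ± 4.74 RPKM), Nfe2l2 (30.8 ± 4.15 RPKM) and Hmox2 (28.3 ± 1.81 RPKM) followed, and neighbours in this order lay within their spread of each other. Hmox1 averaged 20.5 ± 15.9 RPKM, overlapping with Hmox2 above it and with Blvrb (16.3 ± 2.54 RPKM) below it. Slc40a1 (6.53 ± 1.33 RPKM), Gclm (6.26 ± 1.11 RPKM) and Nqo1 (4.16 ± 2.19 RPKM) were lowest and did not differ beyond their spread. The rank of Hmox1 depended on the group, with means of 47.5 RPKM in HLHS and 11.5 RPKM in control left ventricles. At 23.1 RPKM in HLHS and 11.8 RPKM in control right ventricles, it passed Blvrb (16.7 and 16.5 RPKM) only in HLHS.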

How the data were processed

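RNA-seq was done on left and right ventricles of HLHS embryos and control littermates. The authors deposited raw read counts per Ensembl gene. TopHat2 2.0.9, Picard, HTSeq 0.5.4p5, edgeR 3.4.2 and the mm9 build are named in the submitters' processing notes, with no role or setting. Whether counting used strand is not given in the sources used here.

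Symbols were found for 86.6% of the 37991 gene identifiers. Tests on the counts were edgeR 4.0.16 quasi-likelihood tests under R 4.3.3 (TMM scaling; filterByExpr at its minimum of 10 reads and 15 in total; Benjamini-Hochberg adjusted p of 0.05 over all genes tested). HLHS was compared with controls within each ventricle with litter as a block. The left minus right difference of the HLHS effect had the embryo as a block, as had left against right in controls. For E17.5 against E14.5 the counts of an embryo's ventricles were summed. SE is the size of the log2 fold change over the square root of F. CPM, and RPKM with lengths from GENCODE vM21 (another build than the counts), were computed here. DESeq2 1.42.0, other filters and scalings, no block and leaving out embryos were alternatives. Each planned edgeR fit recovered changes put into well-counted genes of data simulated from that same fit. The share recovered is not given here, and full recovery of those changes is not claimed. Those changes were larger than the HLHS differences of the genes of the set other than Hmox1. Recovery of smaller changes was not examined, and the alternatives were not simulated.

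The 10 genes and all lists were chosen with earlier results of these data known. All 10 are described. By rule, up to 4 genes per wider list and comparison are named, those past the threshold with the smallest p. Called out after their values were seen were the marker genes named, Srxn1 for the side difference, and Flvcr2 and Pgrmc1 on the left. Unmatched were Hjv, Hbb-b1, Hbb-b2 and Ahsp. Ventricles with 1 number come from 1 embryo, as the titles show: the difference between the 2 control embryos of a litter correlated between left and right ventricle across 16209 genes with r of 0.331 at E14.5 and 0.370 at E17.5. No libraries of a group were duplicates (lowest chi-square per degree of freedom 7.01 over 26 pairs). Embryos are separate animals within litters, so p-values measure spread among few embryos.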

Additional observations from a re-analysis of the deposited data

Results flagged for a closer look

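The HLHS difference of Hmox1 was larger in the left than in the right ventricle by 1.02 on the log2 scale. It was picked out from the fit of that difference across all genes, and since the gene was chosen for its HLHS level by side, the value is a description.

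For 3 genes the HLHS embryo lay on opposite sides of both its littermates at E14.5 and at E17.5. The share of all genes with such a switch was not counted, so nothing is read from this number. The difference between the stages was not tested. Tfrc in the left ventricle was 0.45 higher on the log2 scale at E14.5 and differed by -0.75 at E17.5. Blvrb in the right ventricle was 0.30 higher at E14.5 and differed by -0.21 at E17.5. Txnrd1 in the right ventricle differed by -0.029 at E14.5 and by 0.19 at E17.5. Each value rests on 1 HLHS embryo.

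Gclm had 1 control library far from the others on each side, both from the E13.5 embryo. It was 21.1 CPM in the left ventricle, where the next lowest control had 36.0 CPM, and 25.4 CPM in the right, where the next had 35.6 CPM. Of 20 groups of 5 control libraries tested, these 2 stood out. Each group mixes the stages, and both flagged libraries come from the only E13.5 control embryo. A chance rate of about 1 in 20 therefore does not apply to them. Among HLHS embryos the E13.5 one was also lowest, at 28.1 CPM in the left ventricle and 27.3 CPM in the right.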

How the results depend on the processing

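The lowest count of any of the 10 genes was 38 reads, and the HLHS values rest on 3 embryos. Without the litter block, the HLHS comparison called 1 gene in the left ventricle and 0 in the right, and 0 of the 10 genes on either side. The left minus right difference without the replicate block called 24 genes and 0 of the 10. With no filter on low counts, 1720 genes were called in the right ventricle (2 of the 10), 356 for the left minus right difference and 1570 between control sides. DESeq2 called 267 genes for the left minus right difference. In the right ventricle it called 2 of the 10, and its count of all genes there is not given. Counts of the 10 in the HLHS comparisons are a description under every setting, and nothing is read from them. Right ventricles alone gave 2905 genes for stage. Leaving out 1 embryo gave 845 (without the E14.5 HLHS embryo) to 2309 genes in the left ventricle (1 to 2 of the 10), and 195 (without control replicate 1) to 1518 in the right (1 to 2). It gave 60 to 271 genes for the left minus right difference (0 to 1), 486 to 883 between control sides (0 to 0) and 3488 to 4531 for stage (3 to 6). In these fits a lone embryo at a stage is assumed to vary like the others. The log2 difference of Hmox1 ran between 1.78 and 2.12 in the left ventricle, 0.71 and 1.14 in the right, and 0.69 and 1.40 for left minus right. No call of the 10 genes or of the wider lists turned its direction. Values that changed sign were all uncalled. In the HLHS comparisons they were Tfrc (0.21 without the E17.5 HLHS embryo) and Fth1 on the left, Nfe2l2, Nqo1, Gclm and Blvrb on the right, and Hmox2, Blvrb, Tfrc and Txnrd1 for left minus right. In control hearts, without 1 embryo, the side difference ran between -0.012 and 0.069 for Blvrb, -0.050 and 0.020 for Fth1, and -0.048 and 0.025 for Gclm, and the stage difference between -0.17 and 0.027 for Blvrb and -0.010 and 0.056 for Gclm. For stage, Gclm was also -0.0051 with a filter at 1 CPM and -0.055 in left ventricles alone, Hmox2 was -0.044 in left and Blvrb 0.051 in right ventricles alone. The causes were not tested.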

Other observations

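In control hearts, E17.5 against E14.5, genes of the wider lists were counted by edgeR's quasi-likelihood test, which called 30.0% of all genes (15.8% higher, 14.1% lower). Of 20 NRF2 targets 3 rose and 3 fell, the same share as of all genes, with Gstm1 up by 0.79 ± 0.14 on the log2 scale, Gclc by 0.30 ± 0.07 and Abcc1 by 0.41 ± 0.10, while G6pdx fell by 0.36 ± 0.08. Of 21 iron genes 5 rose and 3 fell (38.1%), of 19 heme genes 6 and 2 (42.1%), and of 25 other antioxidant enzymes 8 and 3 (44.0%). Among the iron genes were Cp (1.60 ± 0.17), Slc39a14 (0.77 ± 0.08), Slc11a2 (0.43 ± 0.08) and Heph, which fell by 0.61 ± 0.08. Alas1, the first enzyme of heme synthesis outside red cells, rose by 0.84 ± 0.08, and the heme genes Flvcr2 and Cpox by 0.63 ± 0.10 and 0.43 ± 0.07. Gpx3 fell by 0.86 ± 0.06, and the mitochondrial enzymes Sod2 and Prdx3 rose by 0.66 ± 0.10 and 0.57 ± 0.08. Bach2 fell by 0.66 ± 0.12. In fits without 1 embryo Gclc lost its call in all 4, and Abcc1 (without control replicates 3 and 4) and G6pdx (3 and 5) in 2, while the other genes named here kept theirs.

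Between the sides of control hearts few of these genes passed (all genes, 2.09% higher and 4.01% lower on the left). Gsta4, a glutathione transferase, was lower in the left than in the right ventricle (-0.35 ± 0.06), as were Gpx3 (-0.46 ± 0.07) and Gpx7 (-0.24 ± 0.05), whose call was lost in each of 5 fits without 1 embryo. The HLHS comparison and the stage comparison share control embryos, so no relation between them is drawn.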
